A study of Mus musculus with 12 samples.

Results

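A set of 10 genes that mark neutrophils was followed over 12 Affymetrix mouse arrays. They were chosen by name with earlier results of these data known, so setting them against all genes describes them and is no independent test. They were the calcium-binding alarmin subunits S100a8 and S100a9 and the receptors Cxcr2, Csf3r, Fpr1, Fpr2 and Trem1. The rest were the secreted or granule proteins Retnlg, Ltf and Ngp. A gene was measured where a probe set carried its symbol and no other, which held for 8 of the 10 named genes out of 19935 genes in all. Fpr1 and Fpr2, the formyl peptide receptors, were not analysed here. Each of the 8 measured genes had 1 probe set.

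The arrays came from RNA labelled as colon epithelial cells of male mice aged 8 to 10 weeks. TG mice were Villin-Claudin-2 transgenics, in which the Villin promoter, active in intestinal epithelium, drives the tight junction protein claudin-2, and WT mice were their littermates. The Cldn2 probe set read -0.24, 0.27 and 0.15 in TG DSS, 0.36, 0.18 and -0.02 in TG water, -0.53, -2.28 and -0.12 in WT DSS, and -0.04, 0.02 and 0.11 in WT water. The genotypes overlapped at water and under DSS, so this probe set does not separate the TG from the WT arrays, and TG and WT are used as labelled. The 4 groups of 3 arrays were TG mice given DSS, TG mice given water, WT mice given DSS and WT mice given water. DSS is dextran sodium sulfate, a polymer that injures the colon lining and causes colitis, and was supplied at 4% (w/v) for 10 days. Nothing in the sample descriptions ties an array to a mouse of its own, so p-values measure only the spread between arrays, which may be technical.

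Neutrophils are short-lived granulocytes that leave the blood for injured tissue along gradients of CXC chemokines, which the receptor Cxcr2 reads. Their granules are filled in order during maturation in the bone marrow: the azurophil proteins such as myeloperoxidase first, then the lactoferrin-type proteins, then gelatinase, so that a mature cell carries proteins whose mRNA it no longer makes. In colitis they collect in the lamina propria and in crypts, and the S100a8 and S100a9 proteins they release are measured in stool as calprotectin.

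All values are log2 signals relative to the median of that probe set over the 12 arrays, so a value of 0 is that probe set's middle array and a value of 1 is a doubling of it. They carry no absolute level, and levels were therefore not compared between genes. Differences between groups were tested with limma across all 19935 genes, and a gene was called at a Benjamini-Hochberg adjusted p under 0.05. The spread of each gene was estimated from the 4 groups together, so the WT DSS arrays enter every SE, interval and p-value of this fit. Arrays differed in how far they departed from the rest. In the DSS groups, 285, 53 and 90 probe sets lay over 1 log2 unit from their median in TG DSS replicates 1 to 3 and 677, 3795 and 1035 in WT DSS replicates 1 to 3, while the water arrays had 22 to 91. WT DSS replicate 2 stood apart in this way, and the comparisons of the marker genes that use it are also given without it.

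S100a8 and S100a9 encode the paired subunits of calprotectin, which binds calcium, zinc and manganese and makes up much of the neutrophil cytosol. S100a8 read 1.31, -0.03 and -0.22 in TG DSS, -0.26, -0.16 and 0.22 in TG water, 2.96, 4.47 and 0.65 in WT DSS, and 0.03, -0.07 and -0.28 in WT water. The 3 WT DSS arrays all lay above the 3 WT water arrays, and among TG DSS arrays only replicate 1 lay above every TG water array. S100a9 read 1.45, -0.04 and -0.20 in TG DSS, -0.08, -0.13 and -0.01 in TG water, 3.51, 4.60 and 0.94 in WT DSS, and 0.01, 0.09 and -0.19 in WT water. The order of the DSS arrays was the same for both genes. Their profiles correlated at r = 0.995 over the 12 arrays, which are shared and in which the same 4 DSS arrays set most of the spread.

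The genes are neighbours on chromosome 3, with no protein-coding gene between them in the RefSeq order, and are shown because they moved together most closely. The RefSeq promoter windows below (build GRCm38.p6) run from 250 bases before to 50 bases after the start, S100a8 at chr3:90668821-90669120 on the plus strand and S100a9 at chr3:90695672-90695971 on the minus strand. Capitals mark matches on either strand to 3 motifs: TATAAA for the TATA box, GAGGAA for the core bound by PU.1 and other ETS factors, and TTGCNNAA for the C/EBP core.
S100a8: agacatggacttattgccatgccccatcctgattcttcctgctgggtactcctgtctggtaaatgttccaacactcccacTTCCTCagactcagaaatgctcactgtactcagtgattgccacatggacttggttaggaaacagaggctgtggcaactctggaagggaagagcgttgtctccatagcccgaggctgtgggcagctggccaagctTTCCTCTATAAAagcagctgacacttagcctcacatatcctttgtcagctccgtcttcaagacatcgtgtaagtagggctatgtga
S100a9: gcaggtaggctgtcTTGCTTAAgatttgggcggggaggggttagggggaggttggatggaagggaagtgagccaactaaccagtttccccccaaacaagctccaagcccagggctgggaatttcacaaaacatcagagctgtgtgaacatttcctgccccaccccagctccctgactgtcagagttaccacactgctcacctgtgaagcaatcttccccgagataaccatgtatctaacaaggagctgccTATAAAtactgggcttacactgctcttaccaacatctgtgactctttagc
Both windows hold TATAAA, which 4 of the 10 named genes and 13.6% of 32851 RefSeq promoter windows of this length hold. The match begins 30 bases before the annotated start in S100a8 (position -30) and at the start itself in S100a9 (position 1). S100a8 also holds 2 matches to GAGGAA, of which the one nearer the start abuts the TATA match, and S100a9 holds 1 match to TTGCNNAA. GAGGAA was found in 6 of the 10 named genes and 28.3% of all windows, and TTGCNNAA in 4 of the 10 and 10.8%. These matches describe letters in a window and say nothing of what binds there.

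Retnlg, a resistin-like secreted protein made by mouse neutrophils and bone marrow, read 1.17, -0.01 and -0.04 in TG DSS, 0.01, -0.06 and -0.06 in TG water, 3.20, 5.16 and 1.22 in WT DSS, and 0.05, -0.03 and -0.13 in WT water. WT DSS replicate 3 lay just above TG DSS replicate 1, and every WT DSS array lay above every other array. Ltf encodes lactoferrin, the iron-binding protein of secondary granules, which glandular epithelia also make. It read 1.57, 0.06 and 0.18 in TG DSS, -0.42, -0.36 and -0.06 in TG water, 1.25, 0.75 and 0.36 in WT DSS, and -0.33, -0.32 and -0.26 in WT water. Ltf was the one measured gene of the 8 whose highest array was TG DSS replicate 1, and the 1 whose DSS arrays lay above the water arrays in both genotypes. Ngp, a cathelicidin-related protein of secondary granules, read 0.10, -0.35 and 0.02 in TG DSS, -0.17, -0.31 and 0.05 in TG water, 0.59, 3.32 and 0.11 in WT DSS, and -0.02, -0.27 and -0.27 in WT water. A single array, WT DSS replicate 2, held most of the Ngp difference.

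Ltf and Ngp are both on chromosome 9, with 20 protein-coding genes between them in the RefSeq order, and are shown because they are the secondary-granule genes whose profiles differed most from the other 6. Their promoter windows lie at chr9:111019042-111019341 for Ltf and chr9:110419558-110419857 for Ngp, both on the plus strand, with capitals as above.
Ltf: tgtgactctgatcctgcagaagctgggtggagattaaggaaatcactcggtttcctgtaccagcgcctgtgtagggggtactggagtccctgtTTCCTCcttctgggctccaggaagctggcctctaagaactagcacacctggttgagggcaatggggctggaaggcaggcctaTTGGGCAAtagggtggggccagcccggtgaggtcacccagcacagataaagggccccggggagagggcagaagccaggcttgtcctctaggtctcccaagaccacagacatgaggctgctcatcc
Ngp: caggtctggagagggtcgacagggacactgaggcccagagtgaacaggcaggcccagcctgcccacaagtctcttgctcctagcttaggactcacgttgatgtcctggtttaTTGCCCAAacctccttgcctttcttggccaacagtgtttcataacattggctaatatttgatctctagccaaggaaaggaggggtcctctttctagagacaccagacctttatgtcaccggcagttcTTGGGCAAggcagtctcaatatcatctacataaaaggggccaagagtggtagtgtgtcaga
Ltf holds 1 match to GAGGAA and 1 to TTGCNNAA, Ngp holds 2 matches to TTGCNNAA, and TATAAA was not found in either window.

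Cxcr2 is the receptor for the chemokines that draw neutrophils into tissue. It read 1.44, -0.11 and -0.01 in TG DSS, -0.04, -0.12 and 0.01 in TG water, 2.14, 4.44 and 0.23 in WT DSS, and -0.09, 0.04 and -0.16 in WT water. TG DSS replicate 1 lay between WT DSS replicates 1 and 3. Csf3r, the receptor for granulocyte colony-stimulating factor, read 0.60, -0.15 and -0.29 in TG DSS, -0.08, -0.11 and 0.18 in TG water, 1.45, 3.10 and -0.12 in WT DSS, and 0.08, 0.12 and -0.26 in WT water. It was the one measured gene whose WT DSS and WT water arrays overlapped. Trem1, which amplifies inflammatory signals on neutrophils and monocytes through the adaptor encoded by Tyrobp, read 0.71, -0.30 and -0.41 in TG DSS, -0.44, -0.08 and 0.24 in TG water, 2.45, 4.08 and 0.26 in WT DSS, and 0.03, -0.03 and -0.47 in WT water. The same arrays were high for all 3 receptors.

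**Figure D1:**
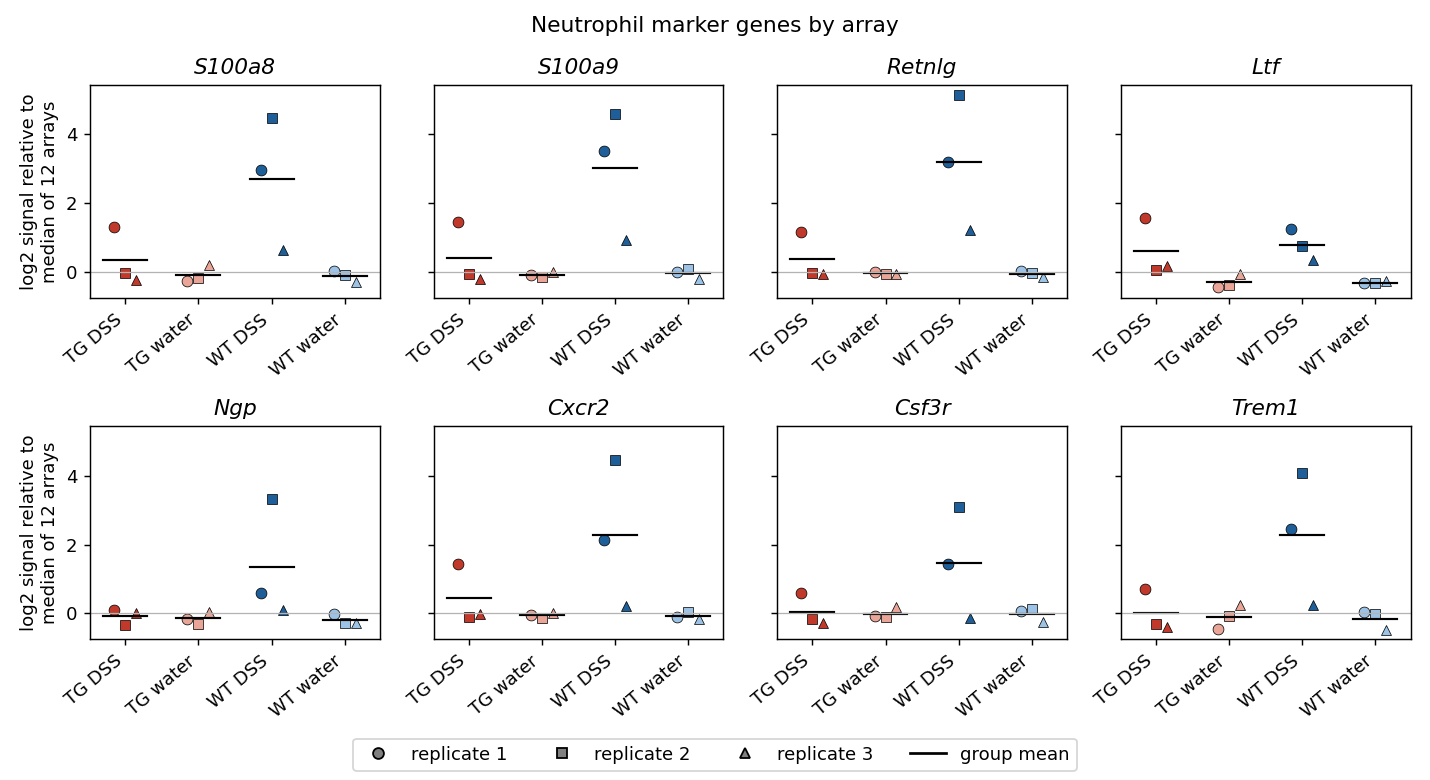
Log2 signal relative to the probe set median (vertical axis) of the 8 measured neutrophil marker genes in each of the 12 arrays, with the groups TG DSS, TG water, WT DSS and WT water and the group means. The WT DSS arrays spread widely, with replicate 2 highest for 7 of the 8 genes, while the water arrays lie near 0.

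Across the genes, the arrays kept nearly the same order. WT DSS replicate 2 was highest for 7 of 8 genes and WT DSS replicate 1 was second for 8 of 8. TG DSS replicate 1 ranked 3 for 5 genes, and WT DSS replicate 3 ranked 4 for 5 genes, which were not all the same genes. The median of the 8 genes was 1.24, -0.08 and -0.12 in the TG DSS arrays, -0.12, -0.12 and 0.03 in TG water, 2.29, 4.26 and 0.31 in WT DSS, and 0.02, -0.03 and -0.26 in WT water. Of the 8 genes, 5 exceeded 1 in TG DSS replicate 1 and 0 in the other two TG DSS arrays, against 7, 7 and 1 in the WT DSS arrays. The WT DSS arrays had the largest SD of the 4 groups for 7 of the 8 genes, all but Ltf.

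The 15 pairs among the 6 genes other than Ltf and Ngp correlated at r = 0.951 to 0.995 over the 12 arrays, with a median of 0.981. Ngp correlated with those 6 genes at 0.864 to 0.945. The 7 pairs with Ltf had r of 0.431, with Ngp, to 0.725, with a median of 0.662. These correlations describe the 12 arrays and carry no test. Where WT DSS replicate 2 lay above WT DSS replicate 1 by 2.73 for Ngp, 2.31 for Cxcr2 and 1.96 for Retnlg, it lay 0.50 below it for Ltf (a difference of -0.50).

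**Figure D2:**
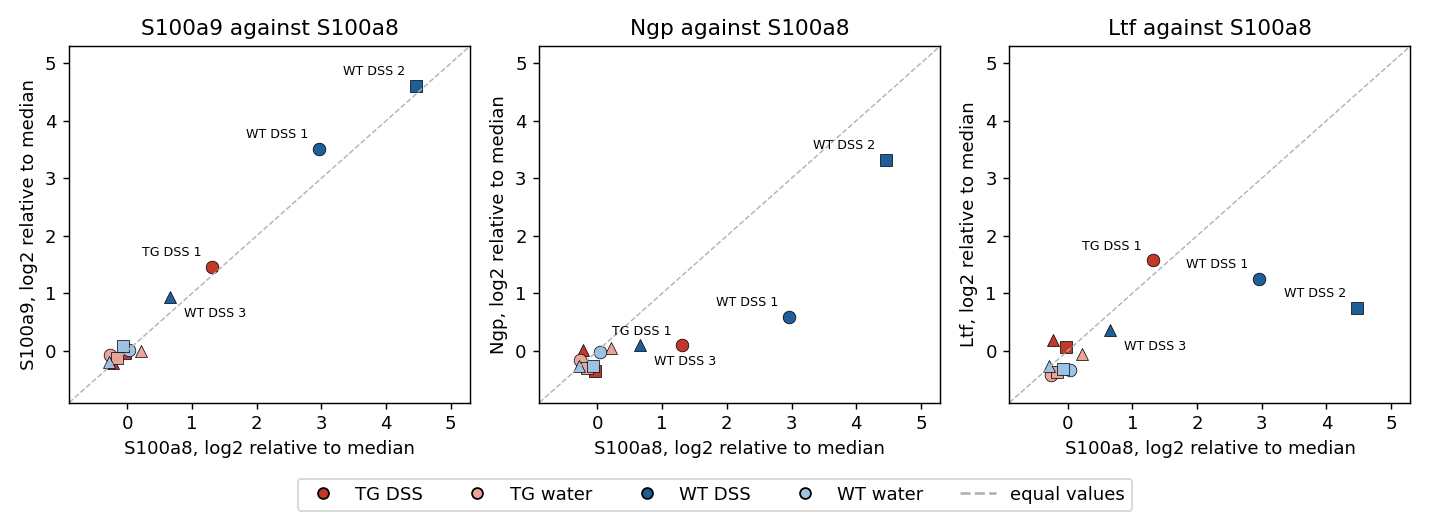
Log2 signal of S100a9, Ngp and Ltf (vertical axes) against S100a8 (horizontal axes), each point 1 array and the broken line equal values. S100a9 follows the line, Ngp departs from 0 mainly in WT DSS replicate 2, and Ltf is highest in TG DSS replicate 1.

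In WT mice the DSS mean was above the water mean for all 8 measured genes, but the spread between the 3 DSS arrays was wide and no gene was called. Retnlg averaged 3.19 ± 1.97 in WT DSS and -0.04 ± 0.09 in WT water (SD, n = 3 each), a difference of 3.23 ± 0.76 (log2 ± SE, 9.38-fold, limma adjusted p = 0.103). S100a9 averaged 3.02 ± 1.88 in WT DSS and -0.03 ± 0.14 in WT water, a difference of 3.05 ± 0.76 (8.28-fold, limma adjusted p = 0.119). S100a8 differed by 2.80 ± 0.77 (6.96-fold, limma adjusted p = 0.144). The remaining differences were 2.42 for Trem1, 2.34 for Cxcr2, 1.52 for Ngp, 1.50 for Csf3r and 1.09 for Ltf, with limma adjusted p from 0.181 to 0.302. Among 19935 genes ordered from the highest difference, Retnlg was 17th, S100a9 20th, S100a8 33rd, Trem1 50th, Cxcr2 56th, Ngp 212th, Csf3r 224th and Ltf 493rd.

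Limma called 0 of the 8 genes in this comparison and 0.171% of all genes. At an unadjusted p under 0.05, 8 of 8 were higher, against 5.7% of all genes, and the groups did not overlap for 7 of 8, against 5.45% of all genes. Fitted on the arrays of these 2 groups alone, 5 of 8 had such a p, against 1545 of all genes in either direction. The median difference was 2.38 over the 8 genes and -0.04 over all genes. Without WT DSS replicate 2 the median was 1.38, and the differences ran from 0.53 for Ngp to 2.26 for S100a9. Limma again called 0 of 8, against 92 of all genes (0.461%). Without WT DSS replicate 3, which read lowest of that group for all 8 genes, the median was 3.39 and limma called 6 of 8, S100a8, S100a9, Cxcr2, Csf3r, Trem1 and Retnlg, with adjusted p from 0.0066 to 0.0302. In that setting it called 575 of all genes (2.88%). In bulk RNA, fewer cells of a type and less RNA per cell cannot be told apart.

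In TG mice no gene was called between DSS and water, and 7 of the 8 differences were 0.49 or less. Ltf averaged 0.61 ± 0.84 in TG DSS and -0.28 ± 0.19 in TG water (SD, n = 3 each), a difference of 0.89 ± 0.36 (1.85-fold, 95% interval 0.09 to 1.68, limma unadjusted p = 0.032 and adjusted p = 1.00), and its groups did not overlap. Cxcr2 differed by 0.49 ± 0.83, S100a9 by 0.47 ± 0.76, S100a8 by 0.42 ± 0.77 and Retnlg by 0.41 ± 0.76. Trem1, Ngp and Csf3r differed by 0.10, 0.06 and 0.06. Their 95% intervals reach up to 2.34, so a change of a few fold could go uncalled in this fit. The spread it uses is pooled over the 4 groups, and for these 7 genes it was largest in WT DSS. Ngp had an SD of 0.24 in TG DSS, 0.18 in TG water and 1.73 in WT DSS. Cxcr2 had 0.86, 0.06 and 2.11. Limma called 0 of 8 and 0.0% of all genes, the lowest adjusted p over all genes being 1.00. At an unadjusted p under 0.05, 1 of 8 was higher, against 1.21% of all genes, and the groups did not overlap for 1 of 8, against 6.76%. Fitted on the arrays of these 2 groups alone, 1 of 8 had such a p, against 1126 of all genes in either direction, and 0 were called. TG DSS replicate 1 carried most of the difference: without it the median of the 8 genes was -0.04, against 0.42 with all arrays, and Ltf differed by 0.40.

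**Figure D3:**
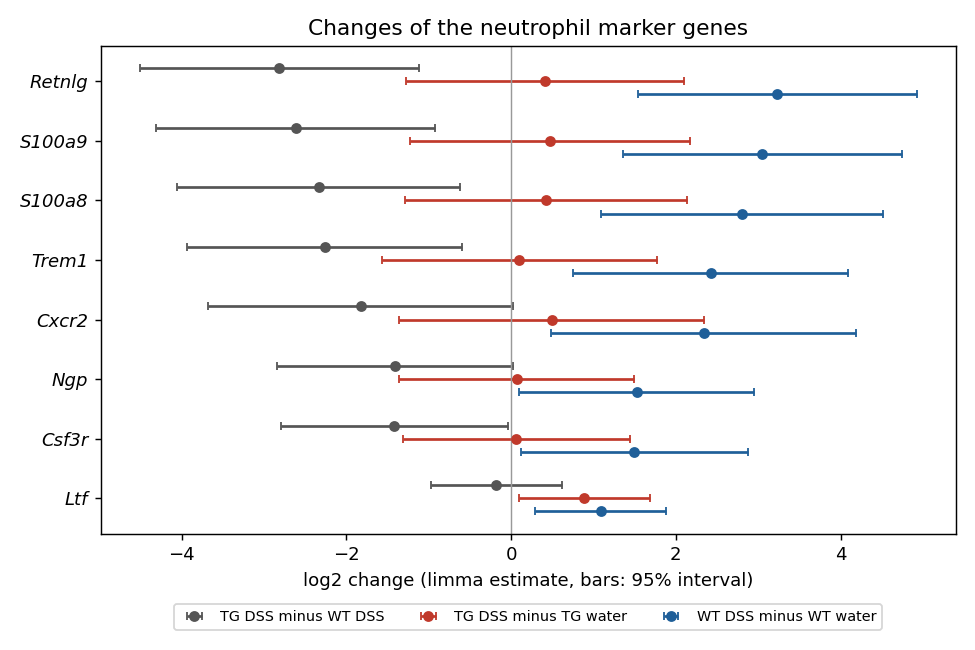
Log2 difference (horizontal axis) of each measured gene in 3 comparisons. Bars give the 95% interval from the limma fit, which pools the spread of the 4 groups. In DSS minus water in WT all 8 intervals lie above 0, while in TG mice the interval of Ltf alone lies above 0, and between genotypes under DSS the points lie below 0 with Ltf nearest to it.

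Under DSS, the TG mean was lower than the WT mean for the 8 genes, with Ltf nearest to no difference. TG DSS replicate 1 minus WT DSS replicate 3 was 0.66 for S100a8, 0.51 for S100a9, 1.21 for Cxcr2 and 0.72 for Csf3r. It was 0.45 for Trem1, 1.21 for Ltf, -0.04 for Retnlg and -0.01 for Ngp. Retnlg averaged 0.37 ± 0.69 in TG DSS and 3.19 ± 1.97 in WT DSS, a difference of -2.82 ± 0.76 (7.04-fold lower, limma adjusted p = 0.143). S100a9 differed by -2.62 ± 0.76 (6.13-fold lower, limma adjusted p = 0.167) and S100a8 by -2.34 ± 0.77 (5.06-fold lower, limma adjusted p = 0.199). Trem1 differed by -2.26, Cxcr2 by -1.83, Csf3r by -1.42 and Ngp by -1.41, with limma adjusted p from 0.202 to 0.317. Ltf differed by -0.18 ± 0.36 (95% interval -0.98 to 0.61, limma adjusted p = 0.845). The Ltf difference turned to 0.05 without WT DSS replicate 1, 0.09 without TG DSS replicate 2 and 0.03 without TG DSS replicate 3.

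Limma called 0 of 8 genes between the genotypes under DSS and 0.0401% of all genes. At an unadjusted p under 0.05, 5 of 8 were lower, against 5.63% of all genes. Fitted on the arrays of these 2 groups alone, 2 of 8 had such a p, against 1879 of all genes in either direction. The groups did not overlap for 2 of 8, Retnlg and Ngp, against 4.9% of all genes, and both by narrow margins: the highest TG DSS and lowest WT DSS arrays were 1.17 and 1.22 for Retnlg and 0.10 and 0.11 for Ngp. The median difference was -2.04 over the 8 genes and 0.04 over all genes. Without WT DSS replicate 2 it was -1.05 with 0 called, against 16 of all genes (0.0803%). Without WT DSS replicate 3 it was -3.06 with 4 called, S100a8, S100a9, Trem1 and Retnlg (limma adjusted p from 0.0144 to 0.0237). In that setting 164 of all genes (0.823%) were called. This comparison and the one in WT mice share the 3 WT DSS arrays, so their sizes are not independent.

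At water, TG and WT arrays differed by -0.04 for S100a9 to 0.06 for Trem1, with a median of 0.02. Limma called 0 of 8 genes and 0.0% of all genes, 0 of 8 had an unadjusted p under 0.05, and no groups failed to overlap, against 1.93% of all genes higher and 3.05% lower. The test of whether the DSS difference itself differed between genotypes gave -2.82 ± 1.08 for Retnlg (limma unadjusted p = 0.0254, adjusted p = 0.827) and -2.57 ± 1.08 for S100a9 (unadjusted p = 0.0379, adjusted p = 0.829). For the other 6 it ran from -2.38 for S100a8 to -0.20 for Ltf, with limma adjusted p from 0.852 to 0.945. It called 0 of 8 and 0.0% of all genes, and 2 of 8 were lower at an unadjusted p under 0.05, against 1.27% of all genes. The median of this test over the 8 genes was -1.09 without WT DSS replicate 2, against -2.09 with all arrays, and Retnlg gave -1.84. It was -3.10 without WT DSS replicate 3. Limma called 0 of 8 in both cases, and 0 and 6 of all 19935 genes. At an unadjusted p under 0.05 there were 1 and 7 of the 8, against 1298 and 2277 of all genes in either direction. A difference in response between TG and WT mice was therefore not shown for any of the 8 genes.

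Granule genes are given in an azurophil list and a later list, of which the later was not limited to granule proteins or to neutrophils. For these and the lists below, 5.7% of all genes were higher in WT DSS than in WT water at an unadjusted p under 0.05, and 0.171% were called. Without WT DSS replicate 2, 2624 of all genes had such a p in either direction, and 92 (0.461%) were called. The azurophil genes Mpo, Elane, Prtn3 and Ctsg, made in the promyelocyte, were 4 of 4 measured. Their WT DSS minus WT water differences ran from -0.09 for Mpo to 0.01 for Ctsg, with 0 called and 0 at an unadjusted p under 0.05. In the WT DSS arrays they read between -0.12 and 0.24. Of the 10 genes of the later list, 7 lay above 0 with a median of 0.36, 4 were higher at an unadjusted p under 0.05, and 0 were called. Lcn2, which sequesters bacterial siderophores and which injured epithelium also makes, read 2.58, -0.01 and -0.03 in TG DSS and 4.37, 6.36 and 2.48 in WT DSS, with a difference from WT water of 4.54 ± 0.90 (limma adjusted p = 0.0716). Mmp8, neutrophil collagenase, differed from WT water by 2.72 ± 0.77 and Mmp9, gelatinase B, by 1.99 ± 0.66 (limma adjusted p = 0.157 and 0.205). Chil3 differed by 1.68 ± 0.69 (limma adjusted p = 0.287). Cd177 and Pglyrp1, granule and surface proteins of the same list named after their values were seen, read -1.30 and -1.22 in WT DSS replicate 2. Cd177 read 1.07, 0.27 and 0.86 in TG DSS and 0.16, -1.30 and 0.20 in WT DSS. The median of the 10 was 0.37 without WT DSS replicate 2, with 4 higher at an unadjusted p under 0.05 and 0 called, and Lcn2 differed by 3.57.

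Another list, drawn up for mature neutrophils but not limited to that stage or cell type, held 20 measured genes of 24 named. Its median difference was 0.82 between WT DSS and WT water, with 18 above 0, 10 higher at an unadjusted p under 0.05 and 0 called. Which cells the signal of these genes came from was not tested. Clec4e, a receptor for microbial and dead-cell lipids, read 1.00, -0.13 and -0.07 in TG DSS and 3.42, 5.04 and 0.86 in WT DSS, against 0.04, 0.05 and -0.19 in WT water (difference 3.14 ± 0.80, limma adjusted p = 0.128). Acod1, which makes itaconate, differed by 3.01 ± 0.83, Clec4d by 2.19 ± 0.66 and the Fc receptor gene Fcgr4 by 2.18 ± 0.66 (limma adjusted p from 0.145 to 0.177). Ly6g, the surface antigen used to gate mouse neutrophils, went the other way and was named after its values were seen. It read -0.02, 0.19 and -0.06 in TG DSS, 0.06, -1.82 and -2.59 in WT DSS and 0.19, 0.31 and -0.38 in WT water (WT DSS minus WT water -1.49 ± 0.52, limma adjusted p = 0.225). Leaving out WT DSS replicate 2 gave a median of 0.39 over the 20 genes, with 8 higher at an unadjusted p under 0.05 and 0 called. The arrays with the highest S100a8 signal were therefore not those with the highest Ly6g signal.

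**Figure D4:**
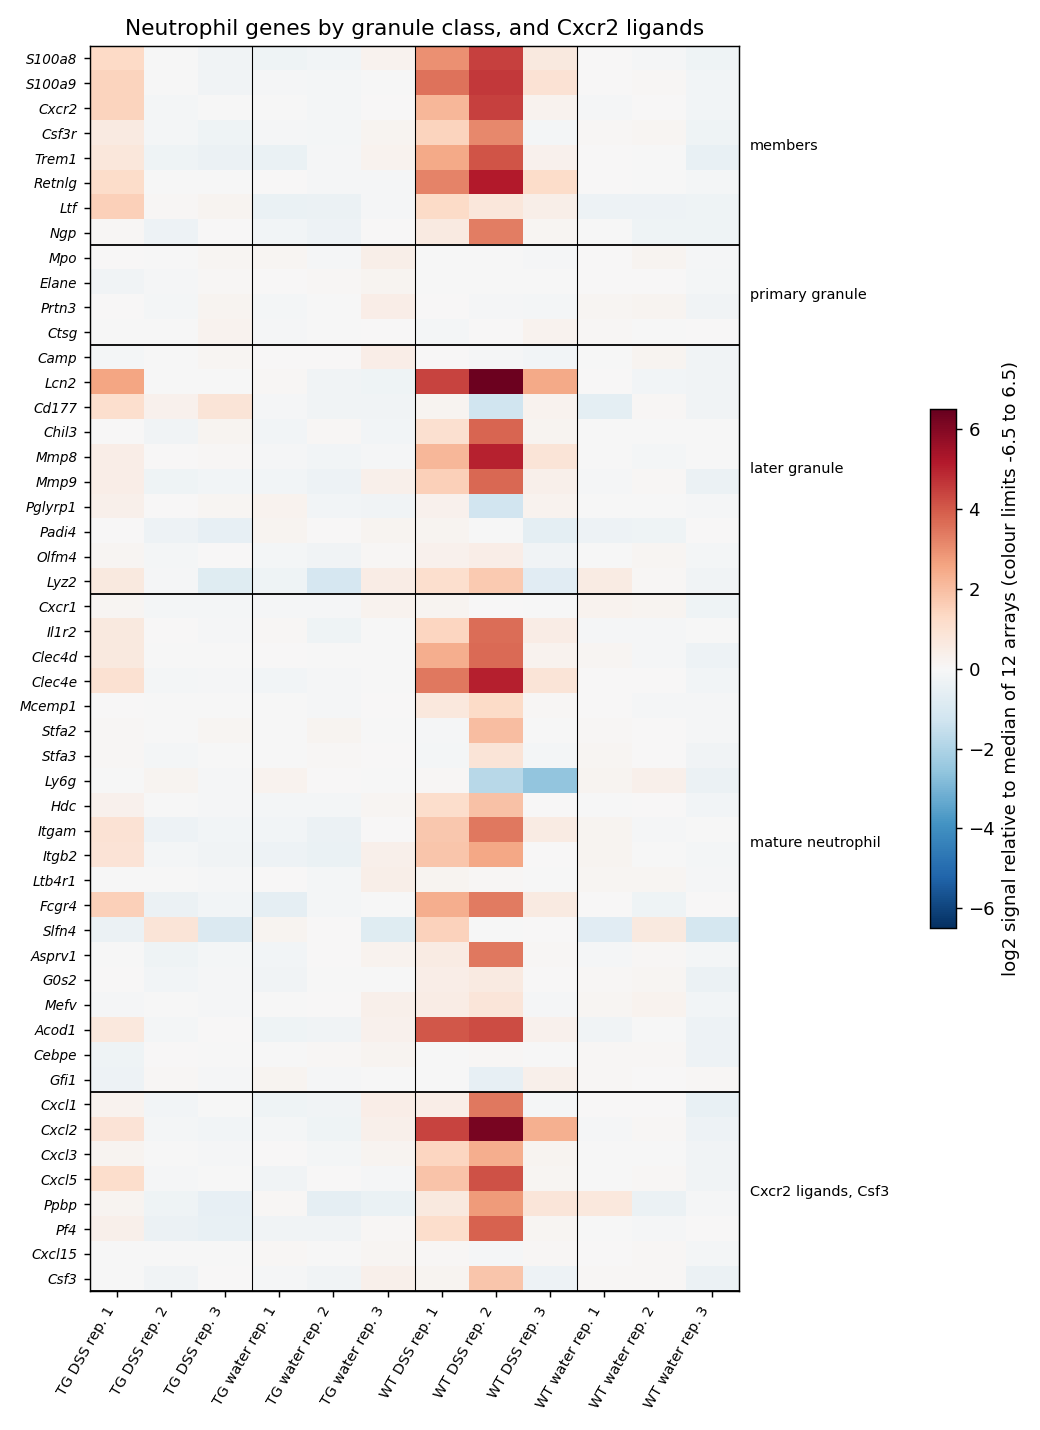
Log2 signal relative to the probe set median (colour) of the measured marker genes and of the granule, mature neutrophil and chemoattractant lists in the 12 arrays, ordered TG DSS, TG water, WT DSS and WT water. WT DSS replicates 1 and 2 are the high arrays for most rows, the azurophil genes lie between -0.24 and 0.45 in all 12 and Ly6g is low in WT DSS replicates 2 and 3.

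Genes for the signals that call neutrophils to tissue had higher means in WT DSS than in WT water, to unequal extents. All 8 chemoattractant and growth factor genes lay above 0 in WT, from 0.04 for Cxcl15 to 4.41 for Cxcl2, with a median of 1.41. At an unadjusted p under 0.05, 5 were higher, against 5.7% of all genes, and 0 were called. Cxcl1 read 0.41, 3.41 and -0.09 in WT DSS, and was named with Cxcl15 after their values were seen. Cxcl2, a ligand of Cxcr2, read 0.88, -0.11 and -0.17 in TG DSS, 4.38, 6.18 and 2.30 in WT DSS and -0.09, 0.09 and -0.35 in WT water. It differed by 4.41 ± 0.75 between WT DSS and WT water and by -4.09 ± 0.75 between TG DSS and WT DSS (limma adjusted p = 0.0618 and 0.0882). Leaving out WT DSS replicate 2 gave a median of 0.64 over the 8: 2 were higher at an unadjusted p under 0.05, and Cxcl2 was called (3.46 ± 0.52, limma adjusted p = 0.0313). Cxcl5 differed from WT water by 2.08, Cxcl3 by 1.42 and Ppbp by 1.33 (limma adjusted p from 0.158 to 0.271). The 8 measured cytokine genes that induce these signals, of 11 named, had a median of 1.17, 5 at an unadjusted p under 0.05 and 0 called. Those with the smallest p were Tnf at 1.54 ± 0.25, Il1b at 4.07 ± 0.86 and Il1a at 3.79 ± 0.82 (limma adjusted p = 0.0511, 0.0813 and 0.0839). Il17a, Il17f and Il23a, named after their values were seen, differed by 0.09, 0.08 and 0.18. The median of the 8 cytokine genes was 0.64 without WT DSS replicate 2, with 5 at an unadjusted p under 0.05 and 0 called.

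The 15 measured genes that carry signals from these receptors, of 16 named, had a median of 0.38, 6 higher at an unadjusted p under 0.05 and 0 called. Arrb2, which desensitises chemokine receptors, differed by 0.96 ± 0.21 and Socs3, an inhibitor of cytokine signalling, by 1.74 ± 0.46 (limma adjusted p = 0.0965 and 0.136). Tyrobp, the partner of Trem1, differed by 1.65 ± 0.56 (limma adjusted p = 0.21). The median of the 15 was 0.20 without WT DSS replicate 2, with 4 higher at an unadjusted p under 0.05 and 0 called. The 8 measured adhesion genes, of 9 named, all lay above 0 with a median of 1.12, 5 at an unadjusted p under 0.05 and 0 called, against 0.58, 2 and 0 without that array. The 5 measured subunits of the NADPH oxidase, which produces superoxide in the phagosome, all lay above 0 (0.73 to 1.63, median 0.88). At an unadjusted p under 0.05, 2 were higher, and 1 was called, against 0.171% of all genes. This was Cyba, the membrane subunit p22phox, at 0.88 ± 0.13 (limma adjusted p = 0.0373). The call was lost in 12 of 19 alternative settings. Over all 19 the difference ran from 0.76 to 0.99 and the limma adjusted p from 0.00528 to 0.405. Cyba read 0.11, 0.06 and 0.12 in TG DSS, 0.41, 0.82 and 0.53 in WT DSS, and -0.36, -0.06 and -0.46 in WT water.

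Markers of other cell types moved with these genes in part. Lists that did not had median differences between WT DSS and WT water of 0.04 for eosinophils and mast cells and -0.03 for B and plasma cells. The medians were -0.30 for smooth muscle, -0.14 for erythroid and -0.10 for squamous epithelial markers. Of the 10 measured macrophage and monocyte markers, 10 lay above 0 between WT DSS and WT water, with a median of 1.09, 3 at an unadjusted p under 0.05 and 0 called. Their median by array was 0.98, -0.30 and -0.14 in TG DSS and 1.08, 2.40 and -0.08 in WT DSS. The sum of their relative log2 values, which is not a level, ran from -2.69 to 8.43 over the TG DSS arrays and -3.94 to 0.68 over TG water. It ran from -0.09 to 23.1 over WT DSS and -0.31 to 2.17 over WT water. Fibroblast markers had medians of 0.85, -0.33 and -0.16 in TG DSS and 1.08, 2.08 and -0.32 in WT DSS, and endothelial markers 0.41, -0.23 and -0.15 in TG DSS and 0.73, 2.99 and -0.36 in WT DSS. The 8 measured T and NK cell markers had medians of 0.14, 0.00 and -0.06 in TG DSS and 0.11, 0.53 and 0.31 in WT DSS. Single markers among them read up to 2.07 in WT DSS replicate 2 and 2.60 in WT DSS replicate 3, and 3 of the 8 were higher in WT DSS than in WT water at an unadjusted p under 0.05, with 0 called. With WT DSS replicate 2 left out, the median differences between WT DSS and WT water were 0.38 for the macrophage list, 0.32 for fibroblasts, 0.20 for endothelium, 0.28 for T and NK cells and -0.03 for epithelium, against 1.09, 0.84, 1.14, 0.45 and -0.76 with it. The 10 epithelial markers had medians of -0.19, 0.04 and -0.04 in TG DSS and -0.10, -2.08 and 0.02 in WT DSS, so the array with the highest neutrophil signal was also the lowest for epithelial genes. Whether a marker was absent cannot be read from values without an absolute level. The part that these other markers, or the spread of WT DSS replicate 2, had in the neutrophil result was not tested.

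**Figure D5:**
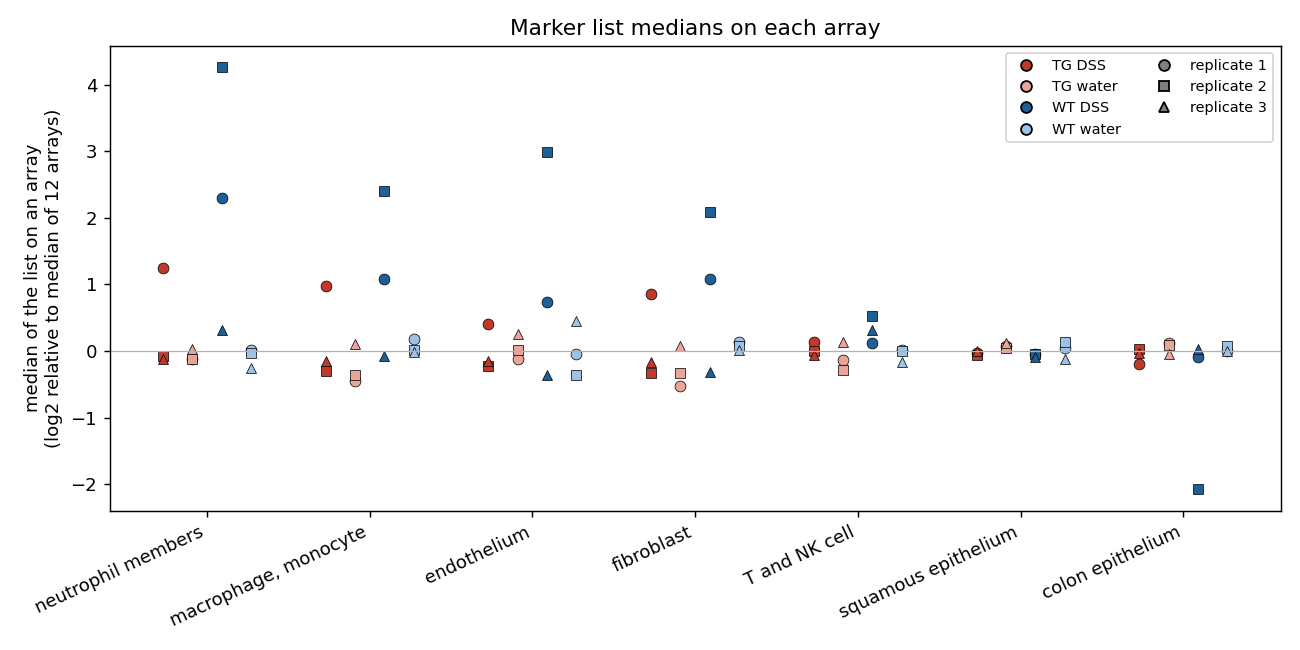
Median log2 signal (vertical axis) of marker gene lists for each cell type in every array, with groups as in the other plots. Macrophage, fibroblast and endothelial lists are highest in WT DSS replicate 2, where the epithelial list reads -2.08.

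The genes whose profile over the 12 arrays was most like the mean of the 8 marker genes were Inhba (r = 0.997), Nrg1 (0.996), Lcp2 (0.994), Hp (0.994), Chrdl2 (0.993), Il11 (0.993), Sema7a (0.992) and Clec4e (0.992), out of 19927 genes compared. Inhba, a subunit of activin, read 1.21, -0.17 and -0.16 in TG DSS and 2.82, 4.69 and 0.57 in WT DSS. Lcp2, an adaptor of immune receptor signalling, read 0.93, -0.03 and -0.04 in TG DSS and 1.59, 3.15 and 0.40 in WT DSS. Such likeness was common over these arrays: 737 genes, 3.7% of those compared, had r over 0.9.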

How the data were processed

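RNA from 12 samples in 4 groups of 3 was measured on 1 array each. Per the submitters' processing notes, the authors used Affymetrix Expression Console and RMA (versions not given in the sources used here), and the deposited values were taken as log2 signal from their range. They are centred: the median of each of 28815 probe sets over the 12 arrays lay within 5e-07 of 0. GEO's platform annotation gave 21780 probe sets 1 symbol, 1605 several and 5430 none, and 21689 matched a RefSeq gene (GRCm38.p6) by gene ID. Probe sets of a symbol were averaged, giving 19935 genes, 998 of them from several probe sets. Array number, 3 a group, limits the precision.

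Group means were fitted over all 12 arrays with limma 3.58.1 (R 4.3.3, lmFit, eBayes, 8 residual degrees of freedom), with Benjamini-Hochberg adjustment over all genes. The fit was also run on simulated data, in which genes were independent and each had the same spread in every group. The real groups differ in spread, so that run cannot show how well the fit works on them. Alternatives were array weights, group weights, median centring, single probe sets, trend and robust variance, 2 groups only, a replicate block, and leaving out arrays. Named genes were the 10 members, up to 4 of each gene list with the smallest p in WT, any called gene, and the 8 most alike by Pearson's r. The members and lists were chosen with earlier results of these data known.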

Additional observations from a re-analysis of the deposited data

How the results depend on the processing

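The 8 genes kept their direction in WT DSS against WT water under every alternative run (0 of 160 values turned). Values turned 15 of 160 times for DSS in TG, 3 of 160 between genotypes under DSS, 21 of 160 at water and 3 of 152 for the difference in response. Which genes passed depended on the arrays. With weights per array, 6 members were called in WT and 4 between genotypes under DSS. All genes called were then 754 for WT, 4 for TG, 273 between genotypes under DSS, 1971 at water and 12 for the difference in response. That fit leaned on single water arrays, with weights of 7.15 for WT water replicate 1 and 6.57 for TG water replicate 2. The other water arrays had 0.313 to 1.77, and WT DSS replicate 2 had 0.105. Weights per group and the fit on 2 groups alone called 0 genes for WT and 0 between genotypes under DSS, trend and robust variance 2 and 0, single probe sets 105 for WT, and median centring 4 between genotypes under DSS, against 34 and 8 as reported. The cause was not tested. Among the other named genes, Tnf was called for WT in 7 alternatives, and Lcn2 and Cxcl2 in 5 each.

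Leaving out 1 array in turn gave 0 to 6 members called for WT and 0 to 4 between genotypes under DSS. All genes called then ran from 0 to 919 for WT, 0 to 1166 between genotypes under DSS and 0 to 239 for the difference in response. The 6 and the 4 came without WT DSS replicate 3. In a setting chosen after seeing the data, without both WT DSS replicate 2 and TG DSS replicate 1, 1 member was called for WT (Retnlg, 2.25, limma adjusted p = 0.0494), with 263 genes for WT, 212 between genotypes under DSS and 7 for the difference in response.

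Whether replicate numbers pair the samples was not settled. Of 18 correlations between same-numbered arrays, 1 was over 0.1 (range -0.484 to 0.377). No correlations between differently numbered arrays were computed for reference, so these values cannot decide it. With the replicate block, 0 genes were called for WT and 0 between genotypes under DSS, and 0 members. The signal is relative to each probe set's median, so background could not be judged.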

Other observations

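Some relatives and chromosomal neighbours of the marker genes read differently from them, and those named here were chosen after their values were seen. Cxcr1, the other interleukin-8 type receptor gene and the neighbour of Cxcr2 on chromosome 1, read 0.13, -0.11 and -0.15 in TG DSS, 0.20, 0.04 and -0.04 in WT DSS and 0.24, 0.19 and -0.30 in WT water. Retnlb, a goblet cell product that lies 1 protein-coding gene from Retnlg on chromosome 16, read 3.12, 0.99 and 0.14 in TG DSS, 3.24, 0.56 and 3.03 in WT DSS and -0.14, -1.14 and -0.50 in WT water. Its lowest WT DSS array was thus the array with the highest Retnlg signal. A list of 12 other S100 genes had differences from -1.53 to 0.88 between WT DSS and WT water, with a median of -0.01 and 0 called. At an unadjusted limma p under 0.05 there were 2, 1 higher and 1 lower, against 3040 of 19935 genes in either direction.

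Csf3, the ligand of Csf3r, read -0.01, -0.24 and 0.01 in TG DSS, 0.15, 1.78 and -0.32 in WT DSS and 0.07, 0.08 and -0.38 in WT water (WT DSS minus WT water 0.62 ± 0.43, limma adjusted p = 0.53). It was high in WT DSS replicate 2 alone, and was also named after its values were seen.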
